A study of Mus musculus with 6 samples.

Results

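The AMPA and kainate receptor subunits are 9 genes, the AMPA subunit genes Gria1 to Gria4 and the kainate subunit genes Grik1 to Grik5. They are defined by gene symbol, a rule that uses no measured value, and all 9 were found once each among the 16060 rows of the deposited table. The table holds the hippocampal mRNA of adult male C57BL/6 mice, 3 labelled Control and 3 labelled MA. Mice of the Control group were injected with saline, and those of the MA group with methamphetamine (MA) at 5 mg/kg in week 1, 10 mg/kg in week 2 and 15 mg/kg in week 3. Hippocampi were taken after behavioral testing on day 22, and each of the 3 samples per group is described as a mouse. The comparison of the groups asks how the hippocampal transcriptome of mice with repeated MA differs from that of saline-treated mice. Values are levels on a log2 scale, read as log2 of an RPKM-type value plus 1. RPKM divides reads by gene length and library size, so levels of different genes can be set side by side, given the lengths used. Those lengths are not known here, and the order of genes by level and their shares rest on them. Differences are given as MA minus Control, between group means.

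The direction of every difference rests on the names of the table's columns, and that direction is in doubt. The immediate early genes Fos, Egr1, Arc and Nr4a1, which neuronal activity induces, were lower in every library labelled MA than in every library labelled Control (4 of 4 genes, differences of -1.80 to -1.45, limma adjusted p of 0.0181 to 0.0315). The study's text describes these genes as raised by MA, which is the opposite direction. That description does not rest on sequencing alone. The study also reports quantitative PCR of the same genes in samples of each group, which in general showed them raised by MA. Which of the column names and the text is right cannot be settled from the table, and if the column names were exchanged, every difference given here would change sign. Control and MA therefore mean the libraries so labelled throughout. These 4 genes were named after their values were seen.

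AMPA receptors carry most of the fast excitatory transmission between neurons, and the number of them at the synapse sets its strength. They are tetramers of the subunits GluA1 to GluA4, encoded by Gria1 to Gria4. The mRNA of Gria2 is edited at a glutamine codon in the pore loop, and the edited subunit makes the channel nearly impermeable to calcium. Kainate receptors act on both sides of the synapse. GluK1, GluK2 and GluK3 (Grik1 to Grik3) can form channels on their own, while GluK4 and GluK5 (Grik4 and Grik5) bind kainate with high affinity and need one of the others. In the hippocampus, kainate receptors are best known from the mossy fiber synapses onto CA3 pyramidal cells, and Grik4 is strongly expressed in CA3.

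The coding stretch that ends just after the pore-loop codon is shown for the 9 genes, since it carries the codon at which Gria2 mRNA is edited and shows how alike the genes are that reads had to be assigned to. Each stretch is 60 bases, 5′ to 3′ in the direction of the gene, from GENCODE release M21 on GRCm38, and lies in 1 exon. Capitals mark the glutamine codon of the pore loop.
Gria1: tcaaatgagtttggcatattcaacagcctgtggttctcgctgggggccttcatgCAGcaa
Gria2: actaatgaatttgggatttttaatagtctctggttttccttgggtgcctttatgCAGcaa
Gria3: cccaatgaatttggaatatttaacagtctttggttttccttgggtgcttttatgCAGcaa
Gria4: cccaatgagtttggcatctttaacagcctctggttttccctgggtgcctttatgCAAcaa
Grik1: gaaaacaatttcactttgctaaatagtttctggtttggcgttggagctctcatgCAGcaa
Grik2: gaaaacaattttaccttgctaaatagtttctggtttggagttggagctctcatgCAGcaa
Grik3: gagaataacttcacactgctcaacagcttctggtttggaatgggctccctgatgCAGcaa
Grik4: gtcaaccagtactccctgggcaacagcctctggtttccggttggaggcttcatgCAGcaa
Grik5: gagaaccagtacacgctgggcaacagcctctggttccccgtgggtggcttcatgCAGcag
The stretches lie at chr11:57243040-57243099 for Gria1, chr3:80706908-80706967 for Gria2, chrX:41610211-41610270 for Gria3 and chr9:4464134-4464193 for Gria4. Those of the kainate genes lie at chr16:87940539-87940598 for Grik1, chr10:49244326-49244385 for Grik2, chr4:125691153-125691212 for Grik3, chr9:42547620-42547679 for Grik4 and chr7:25022494-25022553 for Grik5. Gria1, Gria3 and Grik3 are on the plus strand and the other 6 genes on the minus strand. Within this stretch, 2 AMPA genes shared between 46 and 53 of 60 bases, 2 kainate genes between 37 and 57, and an AMPA and a kainate gene between 34 and 40. Over the aligned coding sequence, identity was 68.0% to 72.9% among the AMPA genes, 55.2% to 72.2% among the kainate genes and 53.3% to 57.8% between the families. The longest run of identical coding bases in any pair was 41, in Gria2 and Gria4. Editing leaves no trace in a table of gene levels and was not measured here.

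Across all tested genes, 35 of 13321 passed an adjusted p-value under 0.05 (limma), which is 0.263%, with 22 higher (0.165%) and 13 lower (0.0976%) in MA. An unadjusted p under 0.05 was reached by 10.4% of the tested genes, 4.99% higher and 5.46% lower. In 17.5% the libraries of the groups did not overlap, 7.32% higher and 10.2% lower in MA. The library labelled MA replicate 3 stood apart. Its mean correlation with the other MA libraries was 0.978, against 0.984 to 0.993 for the other 5 libraries with their own groups. Its deviation from the other libraries fell with exonic length across 13302 genes (Spearman's rho of -0.34, against -0.17 to 0.24 in the others; genes are not independent replicates). Markers of choroid plexus, the epithelium that makes cerebrospinal fluid, were higher in every library labelled MA for 8 of 8 genes, and 4 of the 8 passed the adjusted threshold (limma). Their summed linear level, without Ttr, was 7.81 to 10.7 in Control and 35.6 to 55.4 in MA. With Ttr it was 65.8 to 421 and 1780 to 5080. Thalamic markers (8 genes) summed to 24.5 to 34.5 in Control, and to 65.7, 78.9 and 25.6 in MA replicates 1, 2 and 3. Over the other 11 marker lists and the thalamic one, 0 of 63 tested entries passed the adjusted threshold (limma), and 5 were higher and 5 lower at an unadjusted p under 0.05. Hippocampal markers were present in every library: the CA1 list summed to 108 to 125 in Control and 105 to 106 in MA, the CA3 list to 141 to 182 and 138 to 170, and the dentate granule list to 69.5 to 95 and 65.4 to 77.4. The general neuronal list summed to 1900 to 2060 in Control and 1620 to 2120 in MA, the excitatory list to 1340 to 1450 and 1170 to 1680, and the astrocyte list to 309 to 336 and 246 to 349. For oligodendrocytes the sums were 2760 to 3000 and 2630 to 3190, for their precursors 81.2 to 94.9 and 83.6 to 97.1, for microglia 118 to 128 and 121 to 128, and for endothelium 145 to 166 and 161 to 198. The samples are bulk tissue, so fewer cells of a type and less RNA per cell cannot be told apart.

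None of the 9 subunit genes passed the adjusted threshold between the groups (limma, 0 higher and 0 lower), and 1, Grik4, had an unadjusted p under 0.05. The median difference over the 9 was -0.05, beside -0.01 over all tested genes. The differences ran from -0.15 for Gria3 to 0.35 for Grik4, and the 95% intervals together spanned -0.69 to 0.75. Only in Grik4 did the libraries of the groups not overlap, 1 of 9 genes or 11.1%, which is below the 17.5% of all tested genes. With 3 libraries a group, the smallest two-sided p of an exact permutation test is 0.1.

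**Figure D1:**
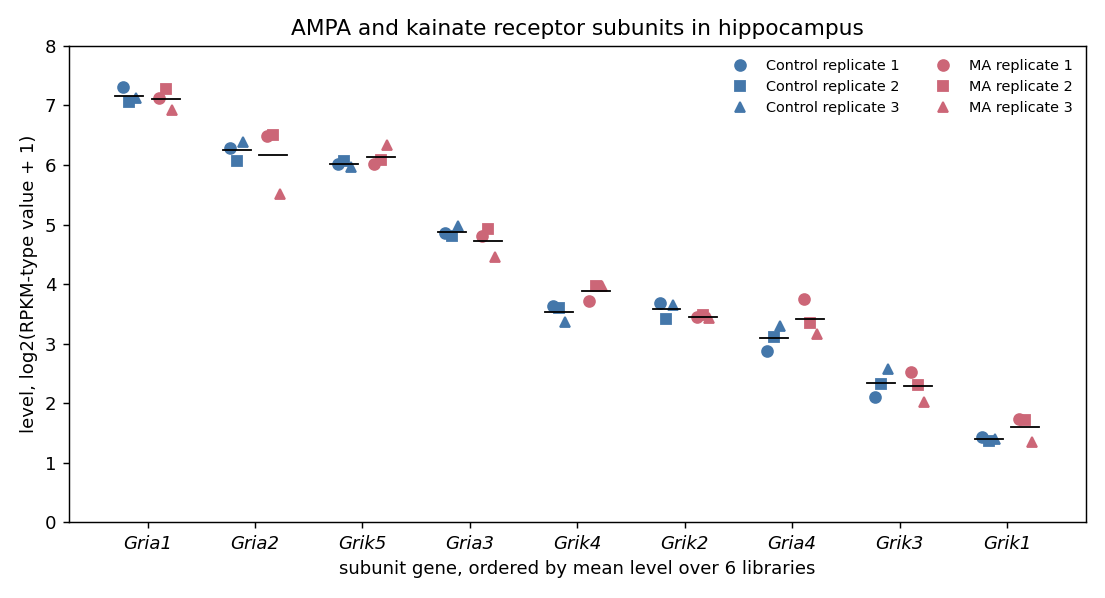
Levels of the 9 subunit genes on the log2 scale (vertical axis) in each library (points, blue for Control and red for MA, marker shape for the replicate number), with black lines at the group means. Gria1 was highest and Grik1 lowest in every library, and Grik4 is the gene whose 3 MA points all lie above its 3 Control points.

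Gria1 encodes GluA1, the subunit that is inserted into synapses during long-term potentiation, and lies on chromosome 11 of GRCm38 from 57011387 to 57330244. Its level was 7.31, 7.06 and 7.12 in Control replicates 1, 2 and 3, and 7.13, 7.27 and 6.93 in MA replicates 1, 2 and 3. It was the highest of the 9 genes in all 6 libraries, and the groups overlapped. Control averaged 7.16 ± 0.13 and MA 7.11 ± 0.17 (SD, n = 3 each), and the difference of -0.05 (standard error 0.11, 95% interval -0.31 to 0.21, limma adjusted p = 0.921) was smaller than the spread within the groups. The difference was 0.04 without MA replicate 3 and 0.02 without Control replicate 1.

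Gria2, on chromosome 3 from 80681450 to 80802835, encodes GluA2, the calcium-limiting subunit. In Control replicates 1, 2 and 3 its level was 6.29, 6.07 and 6.39, and in MA replicates 1, 2 and 3 it was 6.48, 6.51 and 5.52. MA replicates 1 and 2 were thus above every Control library and MA replicate 3 was below every one. The SD was 0.16 in Control and 0.57 in MA, and the spread over the 6 libraries was larger than that of 93.3% of the tested genes. The difference was -0.08 (standard error 0.26, 95% interval -0.69 to 0.52, limma adjusted p = 0.946). MA replicate 3 lay 0.98 below the mean of the other MA libraries, at percentile 1.2 of the tested genes for this gap. Gria2 has the longest exonic sequence of the 9 genes, 15548 bases, and MA replicate 3 is the library whose deviation fell most with exonic length. The same gap, MA replicate 3 minus the mean of the other MA libraries, was 0.28 in Grik5 (5168 bases) and 0.12 in Grik4 (5962). It was -0.27 in Gria1 (6043), -0.39 in Gria4 (6305) and -0.38 in Grik1 (6721). In Grik3 (8973) the gap was -0.40 and in Gria3 (9859) -0.41. Grik2 has the next longest exonic sequence after Gria2, 13246 bases, and its gap was only -0.02 (percentile 47.8). The part of length in the value of Gria2 was not tested. Without MA replicate 3 the difference was 0.25 (standard error 0.10, limma adjusted p = 0.202, with a range of 0.202 to 0.998 over the alternatives).

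Gria3, on chromosome X from 41400854 to 41678601, encodes GluA3, which pairs mostly with GluA2. Its level ranged from 4.81 to 4.97 in Control and from 4.45 to 4.93 in MA, with MA replicate 3 the lowest. The difference was -0.15 (standard error 0.13, 95% interval -0.46 to 0.16, limma adjusted p = 0.749), and it was -0.01 without MA replicate 3. Gria4, on chromosome 9 from 4417896 to 4796234, encodes GluA4, which in the adult forebrain is known from interneurons and thalamic neurons. Its level was 2.87, 3.11 and 3.29 in Control replicates 1, 2 and 3, and 3.75, 3.35 and 3.16 in MA replicates 1, 2 and 3. MA replicates 1 and 2 were above every Control library, while MA replicate 3 fell between Control replicates 2 and 3. Control averaged 3.09 ± 0.21 and MA 3.42 ± 0.30 (SD, n = 3 each), a difference of 0.33 (standard error 0.18, 95% interval -0.08 to 0.75, limma adjusted p = 0.582). It was 0.17 without MA replicate 1 and 0.46 without MA replicate 3.

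MA replicates 1 and 2 held the 2 highest levels of Gria4, the 2 highest of Grik1 and the 2 highest sums of the thalamic markers. The thalamic sums were 65.7 and 78.9, beside 24.5 to 34.5 in Control. The same libraries also held the 2 highest sums of 3 other lists, by smaller proportions. These were the general neuronal list (2100 and 2120, beside 1900 to 2060 in Control) and the excitatory list (1490 and 1680, beside 1340 to 1450). The endothelial list was the other (198 and 177, beside 145 to 166). The inhibitory neuron list summed to 806 to 933 in Control and 753 to 844 in MA. In limma, 0 of its 6 genes passed the adjusted threshold or an unadjusted p under 0.05. Sst weighs most in that sum, with a mean level of 9.30 beside 6.29 for Pvalb, the next highest. Gad2, unlike the others, was highest in MA replicates 1 and 2 (4.24 and 4.03, beside 3.77 to 4.02 in Control). It was 3.38 in MA replicate 3. The part of tissue composition in the values of Gria4 and Grik1 was not tested.

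**Figure D2:**
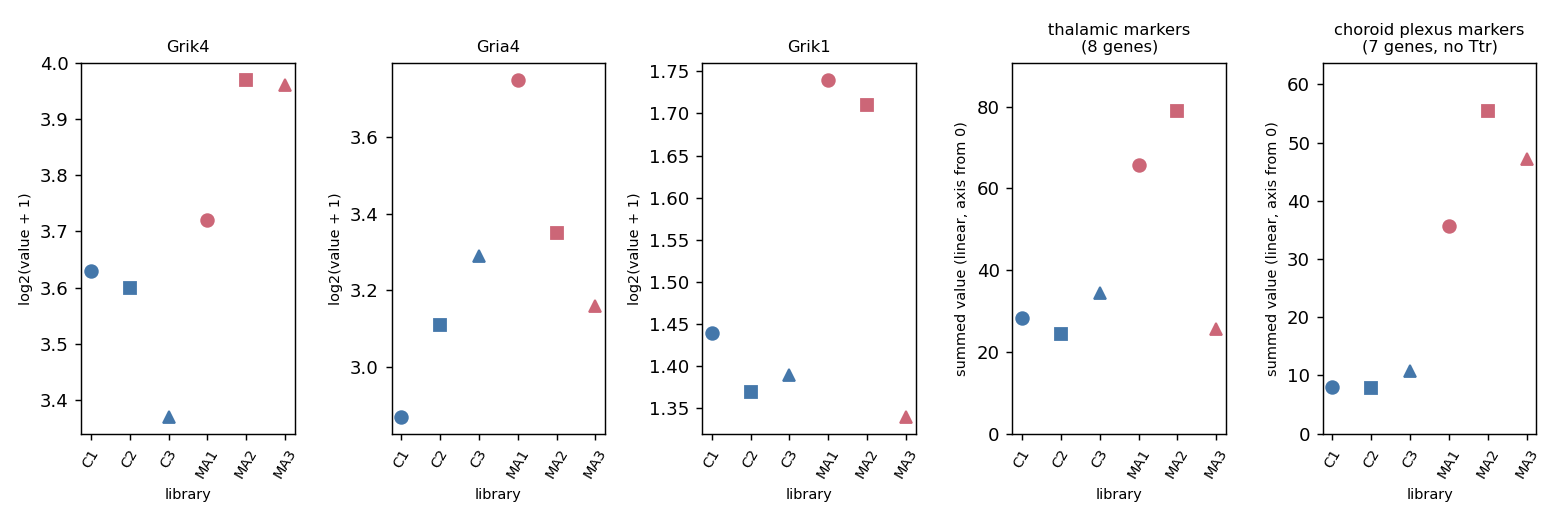
Levels of Grik4, Gria4 and Grik1 on the log2 scale, with axes that do not start at 0, beside the summed linear levels of 8 thalamic and 7 choroid plexus markers, in each library (C, Control; MA; blue and red points). MA replicates 1 and 2 are highest for Gria4, Grik1 and the thalamic sum of 65.7 and 78.9, and all 3 MA libraries are above Control for Grik4 and the choroid plexus sum.

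Grik1, which encodes GluK1 and lies on chromosome 16 from 87895900 to 88290265, was the lowest of the 9 genes in every library. The levels were 1.44, 1.37 and 1.39 in Control replicates 1, 2 and 3, and 1.74, 1.71 and 1.34 in MA replicates 1, 2 and 3. The Control libraries lay close together (SD 0.04), and of the MA libraries 2 were above them and 1 below. The difference was 0.20 (standard error 0.13, 95% interval -0.11 to 0.51, limma adjusted p = 0.673). It was 0.13 without MA replicate 1, 0.32 without MA replicate 3, and 0.30 when the offset was 0.01 in place of 1. Back-transformed, the level of Grik1 was only 1.53 to 2.33, where the offset of 1 compresses differences.

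Grik2 (GluK2), the main pore-forming kainate subunit of hippocampal principal cells, lies on chromosome 10 from 49094833 to 49788766. Its level was between 3.41 and 3.69 in Control and between 3.43 and 3.48 in MA, an overlap in which the MA libraries spanned 1 narrow band. The difference was -0.13 (standard error 0.10, 95% interval -0.37 to 0.11, limma adjusted p = 0.719), and it stayed negative in all 15 alternative fits. Grik3 (GluK3), on chromosome 4 from 125490700 to 125714173, ranged from 2.11 to 2.58 in Control and from 2.02 to 2.53 in MA. The difference of -0.05 (standard error 0.17, 95% interval -0.45 to 0.35, limma adjusted p = 0.946) was far smaller than the SD of 0.24 in Control and 0.25 in MA.

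Grik4, which encodes the high-affinity subunit GluK4, lies on chromosome 9 from 42518135 to 42944493. Its level was 3.63, 3.6 and 3.37 in Control replicates 1, 2 and 3, and 3.72, 3.97 and 3.96 in MA replicates 1, 2 and 3. Every MA library was above every Control library, although MA replicate 1 exceeded the highest Control library only slightly. Control averaged 3.53 ± 0.14 and MA 3.88 ± 0.14 (SD, n = 3 each). The difference was 0.35 (standard error 0.11, 95% interval 0.08 to 0.62), which is 1.27-fold on this scale. It did not pass the adjusted threshold (limma adjusted p = 0.354, unadjusted p = 0.017), and the exact permutation test gave the smallest p the design allows (two-sided, p = 0.1). Over the 15 alternative fits the difference ranged from 0.27 to 0.43 and the limma adjusted p from 0.0779 to 0.785. The choroid plexus markers were likewise higher in every MA library, as were 7.32% of all tested genes. Of the CA3 markers, 0 of 5 had groups that did not overlap, beside 17.5% of all tested genes. The median difference of the CA3 markers was -0.13. The part of choroid plexus or CA3 tissue in the value of Grik4 was not tested.

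Grik5 encodes GluK5, the other high-affinity subunit, and lies on chromosome 7 from 25009849 to 25072346. The level was 6.01, 6.07 and 5.97 in Control replicates 1, 2 and 3, and 6.01, 6.08 and 6.33 in MA replicates 1, 2 and 3. Only MA replicate 3 was well above the Control libraries, so Grik5 was highest in the library in which Gria1, Gria2, Gria3, Grik1 and Grik3 were lowest. Grik5 has the shortest exonic sequence of the 9 genes, 5168 bases, and the deviation of MA replicate 3 fell most with exonic length. The part of length in the value of Grik5 was not tested. The difference was 0.12 (standard error 0.10, 95% interval -0.11 to 0.36, limma adjusted p = 0.727), and without MA replicate 3 it was 0.03. MA replicate 3 was the lowest of the 6 libraries in 5 of the 9 genes, where it was lowest in 29.8% of all tested genes.

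**Figure D3:**
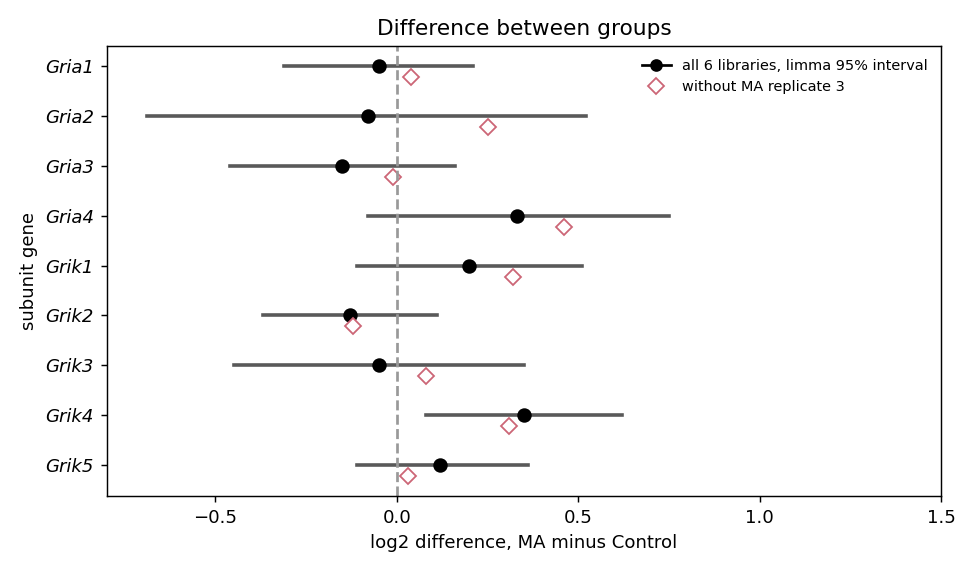
Log2 difference between the groups (horizontal axis, MA minus Control) for each subunit gene, with filled points and bars for the estimate and the limma 95% interval over all 6 libraries, and open diamonds for the estimate without MA replicate 3. The interval of Grik4, from 0.08 to 0.62, is the only one that does not include 0, and the diamond of Gria2 lies at 0.25.

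In order of mean level over the 6 libraries, the genes were Gria1 (7.14), Gria2 (6.21), Grik5 (6.08), Gria3 (4.8), Grik4 (3.71), Grik2 (3.52), Gria4 (3.26), Grik3 (2.31) and Grik1 (1.5). Gria1 was above Gria2 by 0.92 ± 0.28 (SD, n = 6 libraries), with ranges that did not overlap. Gria2 and Grik5 could not be separated, since the mean gap of 0.13 was smaller than its SD of 0.49 and the order held in 5 of 6 libraries. The same was true of Grik4 and Grik2, which kept their order in 4 of 6 libraries, and of Grik2 and Gria4, which kept it in 5 of 6. The steps from Grik5 to Gria3, from Gria3 to Grik4, from Gria4 to Grik3 and from Grik3 to Grik1 held in all 6 libraries, with gaps of 0.81 to 1.28 and no overlap. Gria1 stood at percentile 95.7 of the tested genes by level, Grik5 at 90.8 and Grik1 at 16.3.

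On the linear per-length scale, the levels of a family can be summed and each subunit given as a share. The shares rest on the gene lengths used, which are not known here. Annotated exonic lengths differ widely, with 6043 bases in Gria1 and 15548 in Gria2, and 5168 in Grik5 and 13246 in Grik2. Gria1 made up 56.1 ± 2.74% of the summed AMPA subunit level in Control and 56.2 ± 5.26% in MA (SD, n = 3 each). For Gria2 the share was 29.7 ± 1.90% and 29.4 ± 5.51%, for Gria3 11.2 ± 0.684% and 10.4 ± 0.324%, and for Gria4 3.01 ± 0.577% and 4.01 ± 0.711%. All 4 shares overlapped between the groups. In MA replicate 3 the share of Gria2 was 23.0% and that of Gria1 62.1%, the lowest and the highest of the 6 libraries. In MA replicates 1 and 2 the share of Gria2 was 33.1% and 31.9%, beside a Control range of 28.4% to 31.9%.

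Grik5 dominated the kainate family, with a share of 70.0 ± 1.34% in Control and 70.0 ± 2.78% in MA (SD, n = 3 each). The share of Grik4 was 12.4%, 12.1% and 10.5% in Control replicates 1, 2 and 3, and 13.2%, 14.9% and 13.5% in MA replicates 1, 2 and 3. It was the only one of the 9 shares whose groups did not overlap. The share of Grik2 was 10.4% to 13% in Control and 9.06% to 10.6% in MA, with overlap. Grik3 and Grik1 took 2.82% to 5.57% and 1.42% to 2.52% over the 6 libraries. The high-affinity subunits thus made up most of the summed kainate level in every library. The summed kainate level was 34.1% to 39.7% of the summed AMPA level in Control. In MA it was 34.6%, 34.6% and 55.7% in replicates 1, 2 and 3. MA replicate 3 had the lowest summed AMPA level of the 6, 194, and the highest summed kainate level, 108. The summed kainate level was 89.3 to 92.4 in Control and 92.5 to 108 in MA, so the groups did not overlap, by a narrow margin. These sums follow from the member levels above and were not tested.

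**Figure D4:**
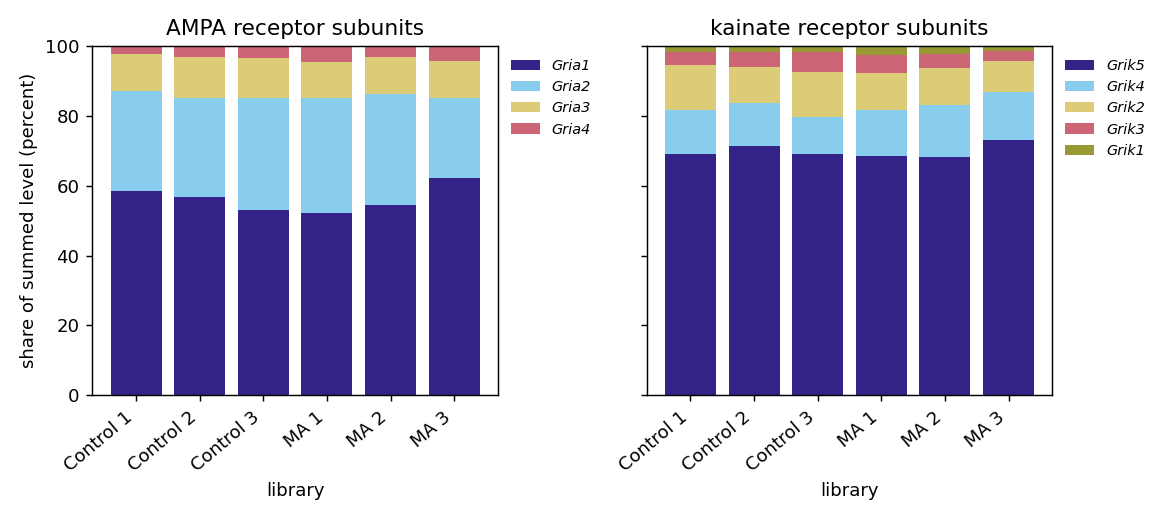
Share of each subunit in the summed linear level of its family (vertical axis, percent) in each library, for the AMPA family (left) and the kainate family (right). Gria1 and Gria2 fill most of each AMPA bar, Grik5 takes 68.3% to 73.2% of each kainate bar, and MA replicate 3 has the smallest Gria2 share, 23.0%.

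AMPA receptors reach and stay at synapses through auxiliary and trafficking proteins. Of a list of 34 names for such genes, 33 were found and tested, and the remaining name, Syndig4, is another name of Prrt1, which is in the list. None passed the adjusted threshold (limma, 0 of 33), 0 were higher and 2 lower at an unadjusted p under 0.05, and the median difference was 0.00, with 17 genes above 0 and 16 below. The groups did not overlap in 4 of the 33, or 12.1%, beside 17.5% of all tested genes. They were Nptx2, Syndig1 and Abhd6, lower in MA, and Pick1, a scaffold protein that binds GluA2, higher in MA by 0.17 (standard error 0.09, limma adjusted p = 0.58). Pick1 was named after its values were seen.

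Nptx2, which encodes a secreted pentraxin that clusters AMPA receptors and is induced by neuronal activity, had the smallest p of the list. Its level was 4.29, 4.08 and 4.19 in Control replicates 1, 2 and 3, and 3.42, 3.79 and 3.84 in MA replicates 1, 2 and 3. Every MA library was below every Control library, with a difference of -0.51 (standard error 0.13, limma adjusted p = 0.252). Syndig1, a transmembrane protein of developing AMPA synapses, was 4.44, 4.31 and 4.11 in the Control libraries and 3.88, 3.99 and 3.83 in the MA libraries. It too did not overlap between the groups (difference -0.39, standard error 0.11, limma adjusted p = 0.287). Abhd6, a hydrolase that limits AMPA receptor delivery, and Shisa8, of the Shisa family of auxiliary subunits, had differences of -0.20 and -0.41 (limma, both at an adjusted p of 0.563).

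The best known auxiliary subunits were at different levels and differed by less than the spread of the libraries. Cacng2, which encodes stargazin, had a mean level of 3.31 over the 6 libraries and a difference of -0.17 (standard error 0.14). Cacng8, which encodes the hippocampal regulatory protein TARP γ-8, had a mean level of 6.10 and a difference of -0.08 (standard error 0.12). Cnih2, a cornichon that slows channel closing, had a mean level of 8.94, above Gria1, and a difference of -0.20 (standard error 0.15). In limma the adjusted p was 0.739 for Cacng2, 0.87 for Cacng8 and 0.717 for Cnih2.

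Of 6 genes whose products accompany kainate receptors, 0 passed the adjusted threshold (limma), and 0 were higher and 2 lower at an unadjusted p under 0.05. The median difference was -0.16. Neto2, an auxiliary subunit that slows desensitization, was 2.94, 2.96 and 2.72 in Control replicates 1, 2 and 3, and 2.60, 2.40 and 2.47 in MA replicates 1, 2 and 3. All MA libraries were below all Control libraries (difference -0.38, standard error 0.11, limma adjusted p = 0.308). Cul3, the ubiquitin ligase scaffold that acts on GluK2 with Klhl17, had a difference of -0.22 (standard error 0.08, limma adjusted p = 0.383) and did not overlap between the groups either. These 2 of 6 genes are 33.3%, beside 17.5% of all tested genes, a share that rests on few genes. The relative Neto1 behaved unlike Neto2. Its level was 3.83, 3.52 and 3.87 in the Control libraries and 4.3, 4.52 and 3.19 in the MA libraries, so that MA replicates 1 and 2 were above and MA replicate 3 below every Control library, the pattern of Gria2. The difference of 0.26 had a standard error of 0.32 (limma adjusted p = 0.841). It was 0.67 without MA replicate 3 (limma adjusted p = 0.0608, with a range of 0.0608 to 0.999 over the alternatives), 0.00 without MA replicate 2, 0.11 without MA replicate 1 and 0.15 without Control replicate 2. C1ql2 and C1ql3, secreted proteins of mossy fiber synapses, had differences of -0.13 and -0.19 (limma adjusted p = 0.798 and 0.675).

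Among the RNA editing enzymes, 0 of 3 passed the adjusted threshold and 0 had an unadjusted p under 0.05 (limma). Adarb1, which edits the pore-loop codon of Gria2 mRNA, was 4.56, 4.43 and 4.76 in Control replicates 1, 2 and 3, and 4.88, 5.01 and 4.28 in MA replicates 1, 2 and 3. As for Gria2 itself, MA replicate 3 was the lowest library and MA replicate 2 the highest (difference 0.14, standard error 0.19, limma adjusted p = 0.862). Of all tested genes, 29.8% were lowest in MA replicate 3 and 14.7% were highest in MA replicate 2. Adar and Adarb2 differed by 0.09 and -0.05.

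The NMDA receptor subunits, the other ionotropic glutamate family of these synapses, also gave 0 calls among 6 tested genes (limma), with 0 higher and 1 lower at an unadjusted p under 0.05 and a median of 0.05. That gene, Grin2a, was lower in every MA library (difference -0.35, standard error 0.13, limma adjusted p = 0.408). It was the only 1 of the 6 without overlap of the groups, or 16.7%, beside 17.5% of all tested genes. Grin1, the subunit that all NMDA receptors share, differed by -0.06 (standard error 0.08), and Grin2d by 0.29 (standard error 0.15), with overlap of the groups in both. The metabotropic glutamate receptors gave 0 calls among 7 tested genes (limma) with 0 at an unadjusted p under 0.05 and a median of -0.10. Grm3 had the smallest p among them, with a difference of -0.32 (standard error 0.19, limma adjusted p = 0.609).

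**Figure D5:**
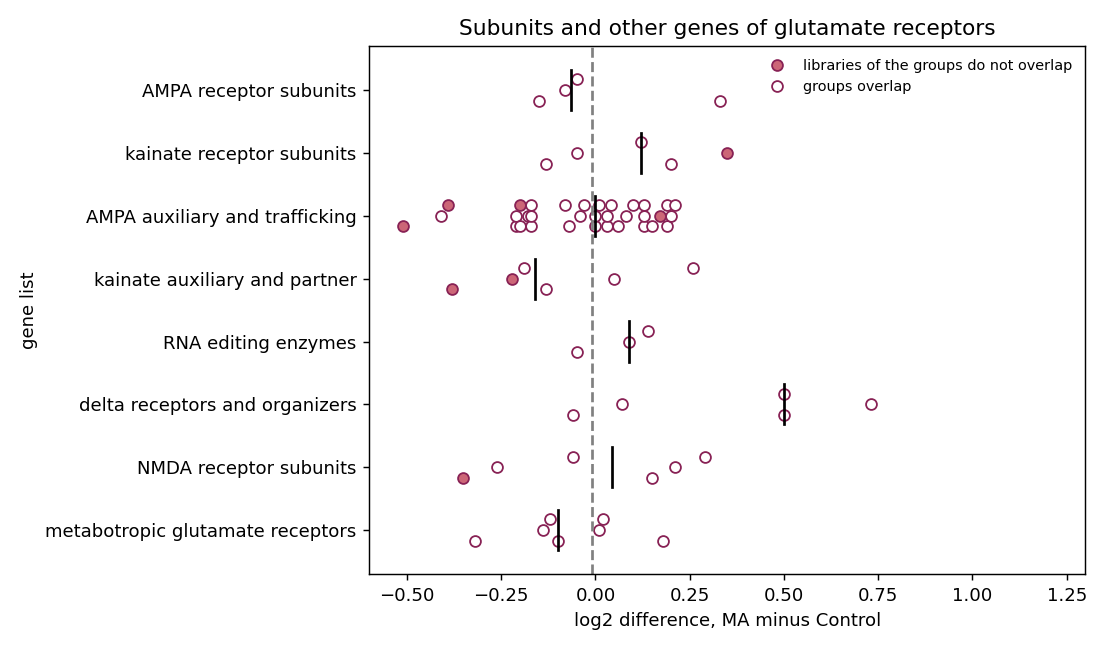
Log2 difference between the groups (horizontal axis, MA minus Control) of each tested gene, by list, with black ticks at the list medians and a dashed line at the median of all tested genes, -0.01. Filled points, such as Grik4 at 0.35 and Nptx2 at -0.51, are genes whose Control and MA libraries do not overlap.

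For each member, the tested gene with the most similar course over the 6 libraries was found by Pearson's r on the log2 scale, as a description of these libraries. They were Morf4l2 for Gria1 (r = 0.998), Pcdhgc5 for Gria2 (r = 0.999), Uxs1 for Gria3 (r = 0.997) and Prr12 for Gria4 (r = 0.994). For the kainate genes they were Celf3 for Grik1 (r = 0.995), Zmym5 for Grik2 (r = 0.990), Lasp1 for Grik3 (r = 0.994), Tmem175 for Grik4 (r = 0.996) and Atp5g1 for Grik5 (r = 0.994). With 6 points such values are common: 441 of the 13321 tested genes had an r over 0.95 with Gria2, and 8 with Grik2. Between members, r ran from -0.91 for Gria3 with Grik5 to 0.91 for Gria2 with Gria3, and MA replicate 3 is an end point of both pairs.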

How the data were processed

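The authors' methods name Hisat2, featureCounts, conversion to FPKM by gene length, and DESeq2; the submitters' processing notes list Bowtie 0.12.2 and the builds mm8 and mm9, without a role. The labels and the methods name different RNA and library kits. The deposited values are on a log2 scale, inferred from their range and sums, with an offset of 1 inferred from lowest values at or near 0. They share 1 maximum across the libraries, from which a normalization between libraries was inferred, a step not described in the sources used here. Read counts are not used here and the depth is unknown, so no interval for counting error is given. Columns were matched to samples by title, and 0 value columns were left over.

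A gene entered the test where its back-transformed value reached 0.5 in 3 or more of the 6 libraries, and the 13321 such genes were tested with limma 3.58.1 in R 4.3.3 (eBayes with a trend, no covariate), with Benjamini-Hochberg adjustment over all of them. The script was tested on simulated data. Exact permutation tests used scipy 1.17.1, and coding sequences were aligned with Biopython 1.88. Locations and sequences are from GENCODE M21 (GRCm38), for position only. Gria2, Gria3, Gria4 and Grik4 each share between 19 and 111 exonic bases with a small RNA gene on the same strand. Members and lists were chosen with earlier results of these data known. Besides the 9 members, the genes named are those of the lists past the adjusted threshold or with the smallest p, well known auxiliary genes, and the nearest gene of each member. Cell type markers were listed for CA1, CA3, dentate granule, neurons in general, excitatory and inhibitory neurons, astrocytes, oligodendrocytes and their precursors, microglia, endothelium, choroid plexus and thalamus. The p-values measure the spread between 3 libraries per group. Alternatives were other offsets and filters, median centring, quantile normalization, no trend, sample quality weights, the replicate number as a block, and leaving out each library. The result of 1 further gene of the lists is not reported here.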

Additional observations from a re-analysis of the deposited data

How the results depend on the processing

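The count of 0 of 9 subunit genes past the adjusted threshold (limma) was 0 in every alternative. The kainate auxiliary list also gave 0 in every alternative. The AMPA auxiliary list gave 1 with sample quality weights (Nptxr, 0.36, limma adjusted p = 0.046, with a range of 0.046 to 0.904). It gave 0 to 1 when single libraries were left out. The 1 was Nsf without MA replicate 3 (0.37, limma adjusted p = 0.0456, with a range of 0.0456 to 0.981). Of all tested genes, 4.4% passed with sample quality weights and 1.93% without MA replicate 3. The sign of 4 members changed in some fits. With sample quality weights the differences were 0.08 for Gria1, 0.23 for Gria2, and 0.00, just on the positive side, for Gria3 and Grik3. With libraries left out in turn, Gria1 ran from -0.13 to 0.04 (0.02 without Control replicate 1, 0.04 without MA replicate 3), Gria2 from -0.25 to 0.25 (0.25 without MA replicate 3) and Grik3 from -0.18 to 0.08 (0.07 without Control replicate 3, 0.08 without MA replicate 3). The cause was not tested. The groups share replicate numbers, but same-numbered libraries did not deviate together (correlations of -0.197, -0.242 and -0.337). With the replicate block 0 members passed, and the smallest limma adjusted p among them was 0.785. Over all genes, the 35 calls became 15 with the replicate block, 3 with no filter, 20 with a minimum mean of 5, 586 with sample quality weights and 0 to 257 with libraries left out in turn. With 3 libraries per group, the widest 95% interval among the members, that of Gria2, reached from -0.69 to 0.52.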

Other observations

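Grid1, which encodes a delta receptor related to the AMPA and kainate subunits, differed by 0.07 (standard error 0.09, limma adjusted p = 0.855). The cerebellin genes, whose secreted products link delta receptors to presynaptic neurexins, had larger differences with wide errors. Cbln4 was 1.75, 2.02 and 2.23 in Control replicates 1, 2 and 3, and 2.83, 2.73 and 1.94 in MA replicates 1, 2 and 3. Cbln1 was 1.32, 2.69 and 2.85 in the Control libraries and 3.53, 3.31 and 2.21 in the MA libraries, and Cbln2 was 1.38, 1.79 and 2.33, then 2.75, 2.37 and 1.86. In all 3 genes MA replicates 1 and 2 were above every Control library and MA replicate 3 was not. The summed thalamic markers had the same order (65.7 and 78.9 in MA replicates 1 and 2, beside 24.5 to 34.5 in Control). So did the summed general neuronal, excitatory and endothelial markers, by smaller proportions. The differences were 0.50 for Cbln4 (limma adjusted p = 0.546), 0.73 for Cbln1 (limma adjusted p = 0.658) and 0.50 for Cbln2 (limma adjusted p = 0.616). Single libraries moved them widely. With libraries left out in turn, Cbln4 ran from 0.34 without MA replicate 1 to 0.78 without MA replicate 3. Cbln1 ran from 0.25 without Control replicate 1 to 1.13 without MA replicate 3. Cbln2 ran from 0.27 without Control replicate 1 to 0.74 without Control replicate 3, and was 0.28 without MA replicate 1. With sample quality weights Cbln4 passed the threshold, at 0.70 (limma adjusted p = 0.0448, with a range of 0.0448 to 0.915 over the alternatives). In that fit 4.4% of all tested genes passed, beside 0.263% in the main fit. The part of tissue composition in these values was not tested.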
